A study of Mus musculus with 4 samples.

Results

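The Nr4a nuclear receptors, the Egr zinc-finger factors, the NFAT factors and the surface protein Cd69 were followed in cultured mouse regulatory T (Treg) cells, as 10 genes (Nr4a1, Nr4a2, Nr4a3, Egr1, Egr2, Egr3, Nfatc1, Nfatc2, Nfatc3 and Cd69) of the 36942 gene names on the array. They were picked by name as products or carriers of T cell receptor signalling, and every one of their 22 probes is given. All mice were C57BL/6. Control cells came from Junbfl/fl mice, whose Junb alleles are floxed but not deleted, and were measured on 2 arrays. The other 2 arrays are labelled Junbfl/flCd4-Cre, where the same floxed alleles meet Cre recombinase driven by the Cd4 promoter, which is active from thymic development onwards and therefore also in CD8 lineage cells. JunB is a subunit of AP-1, the factor that NFAT partners with at many T cell genes. In both genotypes naive CD4+ T cells (CD62L high, CD44 low, CD25 negative) were sorted and then stimulated over 3 days with anti-CD3 coated on the plate at 1 µg/ml, anti-CD28 at 0.5 µg/ml, anti-IFN-γ and anti-IL-4 at 5 µg/ml each and recombinant human TGF-β1 at 5 ng/ml. The culture protocol names no unstimulated cells and a single day, so the values are those of cells that had been stimulated throughout. Nothing in the labels tells separate mice or cultures apart, so the p-values reflect only how far these arrays differ, a spread that may be technical.

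As background, engagement of the T cell receptor raises cytosolic calcium, calmodulin then activates the phosphatase calcineurin, and calcineurin strips phosphates from NFAT proteins so that they enter the nucleus. The Ras and ERK arm acts in parallel through serum response factor and its ternary complex partners on the Egr genes, and both arms feed the Nr4a genes, which are transcribed within the first hours of stimulation. NFAT bound with AP-1 drives effector cytokine genes, whereas NFAT without AP-1, Egr2, Egr3 and the Nr4a receptors have been tied to anergy, exhaustion and, for Nr4a and NFAT, to Foxp3 and Treg cell development. Cd69 is an early surface marker of activation that holds cells in tissue by pulling the sphingosine phosphate receptor off the membrane.

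The 4 arrays lay on 1 slide, with 59.3% to 66.3% of spots well above background and no saturated spot. The labelled cell type was checked against its markers: all 10 T cell markers and all 6 Treg cell markers were above background on every array. They were not level between genotypes, and they did not all move one way. Of the T cell markers, Cd2 (-1.33) and Thy1 (-0.98) were called lower and none higher. Uncalled and without overlap, Cd3d (0.13), Cd3g (0.21) and Cd28 (0.21) stood higher and Cd3e (-0.15), Cd4 (-0.54) and Lck (-0.27) lower. Of all probes tested, 72.2% had no overlap. Of the Treg markers, Ikzf2 (4.56) was called higher and Ctla4 (-1.47) lower. Foxp3 stood at -1.20, Il2ra at -1.67, Nrp1 at -0.90 and Tnfrsf18 at 0.13 without a call. The Treg markers summed to 188 and 150 times the 75th percentile in the controls against 108 and 123 in the others. The extraction text mentions colon. Of 12 colon epithelium markers, 5 (Vil1, Krt20, Cdh1, Muc2 and Cdx1) were above background on none of the arrays and 4 (Epcam, Krt18, Lgals4 and Car1) on all. Slc26a3, a chloride transporter of colon epithelium, was above background only on the arrays labelled Junbfl/flCd4-Cre, at least 8.44-fold higher, and Krt8 was above background on both of those and on 1 control array. Cdx2 was above background only on 1 control array. Epcam stood at -0.48, Krt18 at 0.15, Lgals4 at 0.41 and Car1 at 0.39, all uncalled. The colon list summed to 2.57 and 3.50 in the controls against 3.88 and 4.38 in the others. Like Slc26a3, Eomes (listed for CD8 T and NK cells) and Dcn (listed for stroma) were above background only on the arrays labelled Junbfl/flCd4-Cre. They were at least 4.53-fold and 3.22-fold higher. Slc26a3, Eomes and Dcn entered the fit only through those arrays, so a difference was built in and no p is given for them. Elsewhere on the CD8 T and NK cell list Klrd1 stood lower (-1.04) and Cd8b1 higher (0.55), both uncalled. Cd8a was above background only on 1 control array, Klrb1c only on 1 array labelled Junbfl/flCd4-Cre, and Ncr1 and Klrk1 on none. That list summed to 4.05 and 4.01 in the controls against 4.61 and 5.56 in the others. Of 10 stroma and endothelium markers, 4 were above background on none. The deleted gene itself gave a divided picture. Junb probe A_55_P2011106 read 47.2 and 31.7 processed intensity units on the control arrays. It was not well above background on either array labelled Junbfl/flCd4-Cre, where it was at least 5.71-fold lower. The dim side was set no lower than the dimmest signal well above background on each array. This probe entered the fit only through the control arrays, so a difference was built in and no p is given for it. Junb probe A_51_P159194 read 9791 and 9072 on the control arrays, 1053 on the array with the label Junbfl/flCd4-Cre 1 and 10078 on the array labelled Junbfl/flCd4-Cre 2. The sources used here do not give which bases are deleted, so neither probe can be placed inside or outside them. Since the second probe goes against the label of that array, every direction below is a direction between labels, and the main results are also given without it.

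The start regions of the members that the results turn on are shown first, with Egr2 beside them, because these genes are themselves targets of the signal. RefSeq windows of GRCm38.p6, running from 250 bases before to 50 bases after an annotated start, were matched for 6 members. Both strands were searched for GGAAA (the NFAT core), TGANTCA (AP-1), TGACGTCA (the CRE), the CArG box of serum response factor, GCGNGGGCG (the EGR site) and AAAGGTCA (the Nr4a site NBRE), and capitals mark the matches. In Egr2 the CArG box and an NFAT core share the letters GG, so their capitals run together.
Nr4a1, chr15:101266596-101266895, plus strand: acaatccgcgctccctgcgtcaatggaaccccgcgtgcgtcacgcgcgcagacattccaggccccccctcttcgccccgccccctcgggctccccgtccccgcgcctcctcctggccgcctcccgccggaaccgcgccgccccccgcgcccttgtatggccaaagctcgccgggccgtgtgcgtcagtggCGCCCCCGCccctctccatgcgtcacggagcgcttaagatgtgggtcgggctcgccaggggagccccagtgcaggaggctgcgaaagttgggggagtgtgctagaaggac
Nr4a2, chr2:57123954-57124253, minus strand: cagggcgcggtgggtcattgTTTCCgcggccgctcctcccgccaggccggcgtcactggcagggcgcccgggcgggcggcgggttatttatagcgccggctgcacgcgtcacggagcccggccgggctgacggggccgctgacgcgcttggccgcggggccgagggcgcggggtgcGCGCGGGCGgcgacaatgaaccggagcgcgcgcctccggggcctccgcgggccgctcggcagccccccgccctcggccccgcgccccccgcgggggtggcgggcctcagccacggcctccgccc
Nr4a3, chr4:48045055-48045354, plus strand: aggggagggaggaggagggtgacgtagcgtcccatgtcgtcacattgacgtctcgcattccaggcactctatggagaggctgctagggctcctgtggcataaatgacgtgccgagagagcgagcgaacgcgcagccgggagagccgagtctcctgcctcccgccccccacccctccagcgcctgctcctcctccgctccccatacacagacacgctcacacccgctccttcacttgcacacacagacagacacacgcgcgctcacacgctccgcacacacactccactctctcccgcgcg
Egr2, chr10:67537316-67537615, plus strand: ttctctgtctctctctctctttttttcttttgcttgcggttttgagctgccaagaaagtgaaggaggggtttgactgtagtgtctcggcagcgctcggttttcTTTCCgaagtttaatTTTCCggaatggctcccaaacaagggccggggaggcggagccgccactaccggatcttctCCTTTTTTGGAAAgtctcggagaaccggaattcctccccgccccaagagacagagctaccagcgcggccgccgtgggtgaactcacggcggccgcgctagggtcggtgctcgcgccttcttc
Nfatc2, chr2:168601608-168601907, minus strand: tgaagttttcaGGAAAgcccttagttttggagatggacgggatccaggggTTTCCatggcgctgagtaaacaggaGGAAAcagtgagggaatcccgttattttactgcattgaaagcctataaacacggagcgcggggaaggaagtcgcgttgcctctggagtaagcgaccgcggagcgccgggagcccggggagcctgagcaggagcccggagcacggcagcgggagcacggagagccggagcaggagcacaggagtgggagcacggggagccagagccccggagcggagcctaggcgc

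The Nr4a1 window held 1 EGR match, the Nr4a2 window 1 EGR and 1 NFAT core match, and the Nr4a3 window none of the 6 motifs. Egr2 has 5 windows and Nfatc2 has 2, and the one with the most matches is printed for each. The Egr2 window printed held 3 NFAT core matches and 1 CArG box, and of its other windows 3 held 1 of each and 1 held neither. The Nfatc2 window printed held 3 NFAT core matches and its other window 1. Among all 32851 windows of 300 bases, 61.3% held the NFAT core, 5.55% the EGR site and 1.63% a CArG box, so the core is a common string and the other 2 motifs are rare ones. The AP-1 string was in 7.81%, the CRE in 1.79% and the NBRE in 1.51% of all windows, and none of these 3 was in any of the 5 windows printed. A match is a string of letters, not a shown binding site.

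The array reads each gene through probes of 60 bases, placed on build mm9 by the files. Exon and untranslated-region annotation of that build was not used here. Several genes are read at widely spaced places: the 3 Nfatc2 probes span 59.8 kb of chromosome 2 and the 3 Nr4a3 probes span 17.7 kb of chromosome 4. The sequences of a few probes are shown so that these readings can be placed; no bases in them are singled out.
Nr4a2 probe A_52_P494622, chr2:56960699-56960758, minus strand: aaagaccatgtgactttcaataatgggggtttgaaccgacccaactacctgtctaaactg
Nr4a3 probe A_66_P103105, chr4:48064521-48064580, plus strand: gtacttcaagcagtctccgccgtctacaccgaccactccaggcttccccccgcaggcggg
Nfatc2 probe A_52_P628171, chr2:168361757-168361816, minus strand: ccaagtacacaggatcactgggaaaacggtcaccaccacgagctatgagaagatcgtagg

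Levels below are log2 of the processed signal minus log2 of the array's 75th percentile, so that 0 is the 75th percentile of that array. Differences are the mean of the arrays labelled Junbfl/flCd4-Cre minus the mean of the controls on this scale, ± the standard error of the limma fit, with n = 2 arrays per genotype. A probe was called changed at a Benjamini-Hochberg adjusted p under 0.05 over all 33606 probes tested. All 22 member probes passed the filter on dim probes, and 21 of them were above background on all 4 arrays; the other, Nfatc3 probe A_55_P2521705, passed only through the arrays labelled Junbfl/flCd4-Cre. Groups of 2 allow no exact permutation p below 0.333.

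The 3 Nr4a genes were read higher on both arrays labelled Junbfl/flCd4-Cre by all 6 of their probes, with differences between 0.58 and 1.39, and none of the 6 passed the test. Nr4a1 (Nur77), the receptor most used as a reporter of antigen receptor signal strength, stood at 6.55 and 6.27 on the control arrays and at 7.05 and 7.29 on the arrays labelled Junbfl/flCd4-Cre (probe A_51_P239654, chr15:101105071-101105130). Every level labelled Junbfl/flCd4-Cre lay above both control levels, and the difference was 0.76 ± 0.20 (limma, adjusted p = 0.0826). In processed signal the same probe read 14220 and 11133 against 15794 and 15753, a smaller gap, since each array's level is taken against its own 75th percentile (151 and 145 units in the controls, 119 and 101 in the others). In the authors' deposited table the Nr4a1 difference was 1.04 with an adjusted p of 0.0456.

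Nr4a2 (Nurr1) gave the largest differences of the family. Its probe A_52_P494622, shown above, stood at 2.29 and 3.09 on the control arrays and at 3.78 and 4.24 on the others, a difference of 1.32 ± 0.36 (limma, adjusted p = 0.0858). The second Nr4a2 probe, A_66_P118213 (chr2:56960000-56960059), stood at 2.17 and 2.80 against 3.71 and 4.03, a difference of 1.39 ± 0.29 (limma, adjusted p = 0.0654). The control arrays differed from each other by 0.81 at the first probe, which is more than the 0.46 between the arrays labelled Junbfl/flCd4-Cre. The probes target the same transcript and are not separate evidence. The authors' deposited table holds only the first of these probes, with a difference of 1.60 and an adjusted p of 0.0702.

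Nr4a3 (Nor1), the third receptor, was read by 3 probes that shared direction but not size. Probe A_66_P132423 (chr4:48062977-48063036) stood at -0.82 and -1.13 on the control arrays and at 0.14 and -0.10 on the others, a difference of 0.99 ± 0.20 (limma, adjusted p = 0.0637). Probe A_66_P103105, shown above, gave 0.62 ± 0.16 (limma, adjusted p = 0.0824), from -1.97 and -2.07 to -1.31 and -1.48. Probe A_51_P128397 gave 0.58 ± 0.21 (limma, adjusted p = 0.126), from -1.38 and -1.80 to -1.0 and -1.02, and its mm9 placement runs from 48080690 to 48083876, further than its own length, so it crosses a gap in the genome. The authors' deposited table gives these probes, in the same order, smaller differences of 0.69, 0.21 and 0.31. Its adjusted p-values for them are 0.0745, 0.319 and 0.239.

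Across the family the median difference was 0.87, against -0.01 over all 33606 probes. All 6 Nr4a probes had levels labelled Junbfl/flCd4-Cre above both controls, where 34.4% of all probes did, and all 6 had an unadjusted p under 0.05, where 38.2% of all probes did. None of the 6 was called, beside 6.78% of all probes tested (5.53% higher and 1.25% lower). Without the array labelled Junbfl/flCd4-Cre 2 the difference was 0.64 at Nr4a1, 1.09 and 1.23 at the Nr4a2 probes and 0.59 to 1.11 at the Nr4a3 probes. The lowest adjusted p over the alternatives run was 0.0189, at Nr4a2 with the array number as a block, and the highest was 0.892, at Nr4a3 probe A_51_P128397. Myeloid markers differed in the same direction: the 14 on the array summed to 27.4 and 18.5 times the 75th percentile in the controls and to 63.2 and 33.3 in the others. Itgam alone made up 23.7 and 13.4 against 54.9 and 21.0 of these sums, with overlap, and the other 13 summed to 3.67 and 5.09 against 8.25 and 12.3, a split chosen after seeing the data. Of the 14, 6 were above background on all 4 arrays, 0 were called, and Adgre1 and Fcgr1 were above background on none. B cell markers summed to 4.0 and 1.72 against 8.23 and 5.63, with 6 of 8 above background on all arrays and 2 (Ms4a1 and Ebf1) called higher. Their part in the Nr4a values was not tested. In bulk RNA, fewer cells of a type and less RNA per cell cannot be told apart.

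**Figure D1:**
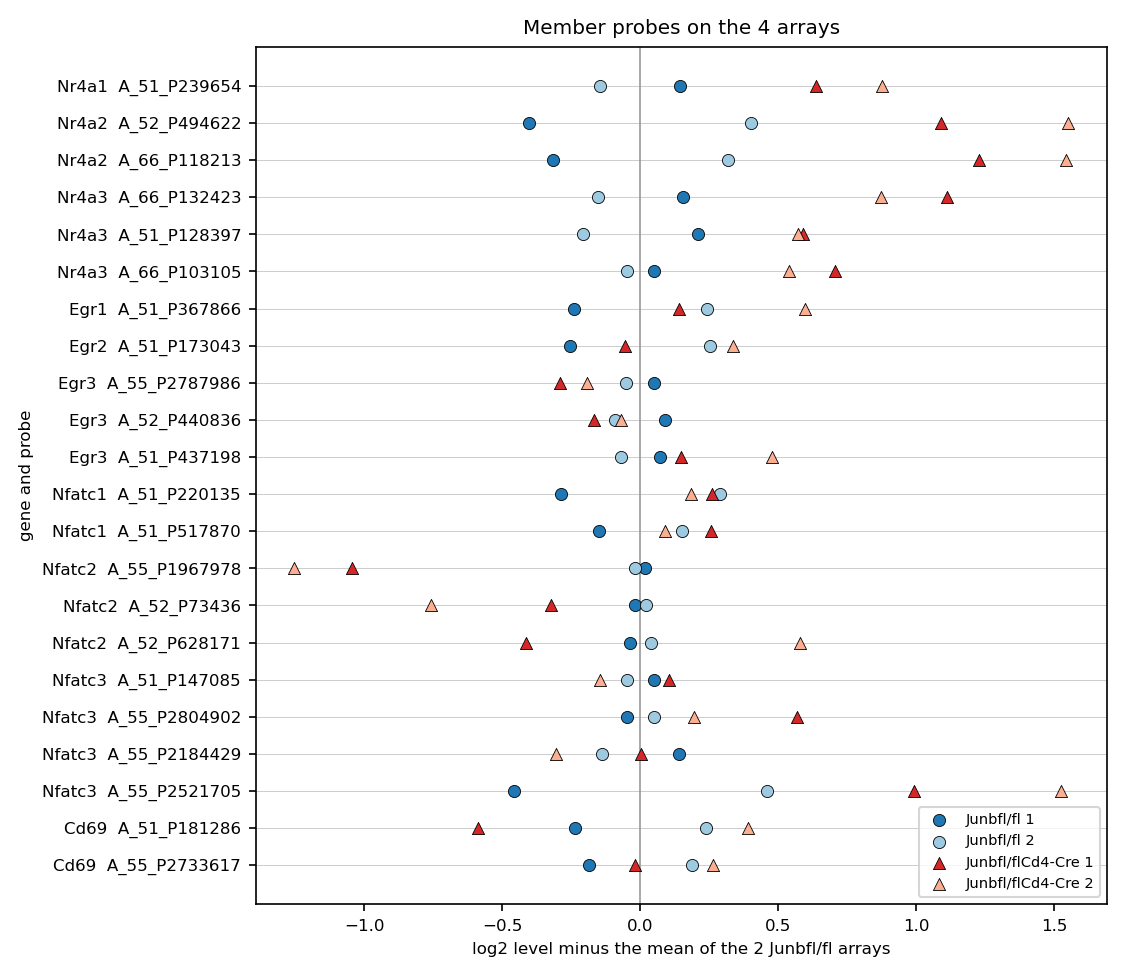
Scaled log2 level of each of the 22 member probes on each of the 4 arrays, drawn as its distance from the mean of the 2 Junbfl/fl arrays; circles are Junbfl/fl and triangles are arrays labelled Junbfl/flCd4-Cre. At all 6 Nr4a probes and at none of the Cd69 probes do both triangles lie above both circles.

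The Egr genes, the immediate early zinc-finger factors downstream of ERK and serum response factor, showed no called probe among 5, and their median difference was 0.14. Egr1, the most general of the immediate early factors, stood at 3.09 and 3.58 on the control arrays and at 3.48 and 3.93 on the others, and the groups overlapped (0.37 ± 0.27, limma, adjusted p = 0.360). Egr2 (Krox20), which restrains T cell activation and is induced in anergic cells, stood at 4.25 and 4.76 against 4.45 and 4.84 (probe A_51_P173043, chr10:67004758-67004817). The difference of 0.14 ± 0.27 (limma, adjusted p = 0.714) was smaller than the 0.51 between the controls, and it fell below 0 without control 1 (-0.11) and without the array labelled Junbfl/flCd4-Cre 2 (-0.06).

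Egr3, the partner of Egr2 in limiting activation, was read by 3 probes on chromosome 14. Probe A_55_P2787986 (70482361-70482420) stood at 2.40 and 2.30 on the control arrays and at 2.06 and 2.16 on the others, without overlap (-0.24 ± 0.15, limma, adjusted p = 0.301). Probe A_52_P440836 stood at 0.61 and 0.43 against 0.35 and 0.45, with overlap. Probe A_51_P437198, a dim one, stood at -4.26 and -4.40 against -4.18 and -3.85, the opposite sign (0.31 ± 0.19, limma, adjusted p = 0.287). The 3 probes of Egr3 therefore disagreed in sign, and no Egr probe had an unadjusted p under 0.05. Egr4, the remaining relative, gave 0.11 (limma, adjusted p = 0.649).

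The Nfatc genes encode the calcium-regulated NFAT proteins. Of their 9 probes 1 was called, at Nfatc2, and the median difference was 0.08. Nfatc1 (NFAT2), whose short form is induced by NFAT itself in activated T cells, was read by probes to 2 transcript variants. The first (A_51_P220135) stood at 2.02 and 2.60 on the control arrays and 2.57 and 2.49 on the others, and the other (A_51_P517870) at 1.96 and 2.27 against 2.37 and 2.20. Their differences of 0.22 ± 0.25 and 0.17 ± 0.19 had limma adjusted p-values of 0.533 and 0.522, and the genotypes overlapped at both.

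Nfatc2 (NFAT1), the form already present in resting T cells, fell at its brightest probe. Probe A_55_P1967978 (chr2:168301974-168302033, the most 3′ of the 3) stood at 4.71 and 4.67 on the control arrays and at 3.65 and 3.44 on the arrays labelled Junbfl/flCd4-Cre, so the genotypes lay apart by far more than the arrays within each. The difference was -1.15 ± 0.16, a 2.22-fold lower level (limma, adjusted p = 0.0412), and processed signals were 3957 and 3695 against 1496 and 1095. It was the only call among the 22 member probes, or 4.55% of them, beside 6.78% of all probes. The call was lost with any array left out: the difference was -1.05 to -1.25 and no probe on the array was called in those limma fits, although 7315 to 11361 had an unadjusted p under 0.05. Over all 15 alternatives its sign held, its difference ran from -1.68 (median scaling) to -0.54 (the mean of the gene's probes), its adjusted p from 0.0226 to 0.158, and it was called in 6. That sign could not change in fits that keep the probe's levels or leave out an array, because the groups did not overlap. It could have changed under other scalings or normalizations, the deposited signals or the mean of the gene's probes. In the authors' deposited table the probe's difference was -0.79 with an adjusted p of 0.0601.

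The other Nfatc2 probes, which lie towards the 5′ end on this strand, were dimmer and not called. Probe A_52_P73436 (168359185-168359244) stood at -0.80 and -0.76 on the control arrays and at -1.11 and -1.54 on the others. It was lower without overlap (-0.54 ± 0.21, limma, adjusted p = 0.145). Its sign held in all 13 alternatives that read it, but those that keep its levels or leave out an array could not change it. The probe was called in 1, median scaling (-1.07). Probe A_52_P628171, shown above, stood at -1.76 and -1.69 against -2.14 and -1.15, with overlap (0.08 ± 0.38, limma, adjusted p = 0.884), and was -0.42 without the array labelled Junbfl/flCd4-Cre 2. The call was thus made at the most 3′ probe alone, with a smaller difference of the same sign at A_52_P73436. Whether the probes read different transcript forms was not tested.

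Nfatc3 (NFAT4), which acts in thymocytes and mature T cells, was read by 4 probes on chromosome 8, none called. Its brightest probe, A_51_P147085, stood at 3.52 and 3.42 on the control arrays and at 3.57 and 3.32 on the others, a difference of -0.02 ± 0.17 (limma, adjusted p = 0.934). Probe A_55_P2804902 gave 0.38 ± 0.20 without overlap, and probe A_55_P2184429 gave -0.15 ± 0.21 with overlap. The dimmest probe, A_55_P2521705, was not well above background on the control arrays and was at least 1.94-fold higher on the others. It entered the fit only through the arrays on which it was bright, so a difference was built in and no p is given for it. It belongs to the dimmest quintile of the probes tested, whose median difference was 0.68.

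Cd69, the early activation marker, was read by 2 probes on chromosome 6 and the genotypes overlapped at both. Probe A_51_P181286 (129217697-129217756) stood at 2.40 and 2.87 on the control arrays and at 2.05 and 3.03 on the others, so the arrays labelled Junbfl/flCd4-Cre enclosed the controls (-0.10 ± 0.41, limma, adjusted p = 0.870). Probe A_55_P2733617 (129223547-129223606) stood at 1.24 and 1.61 against 1.41 and 1.69 (0.12 ± 0.22, limma, adjusted p = 0.696). The sign depended on single arrays: the first probe was at 0.39 without the array labelled Junbfl/flCd4-Cre 1 and at 0.14 without control 2, and the second was at -0.06 without control 1 and at -0.02 without the array labelled Junbfl/flCd4-Cre 2.

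**Figure D2:**
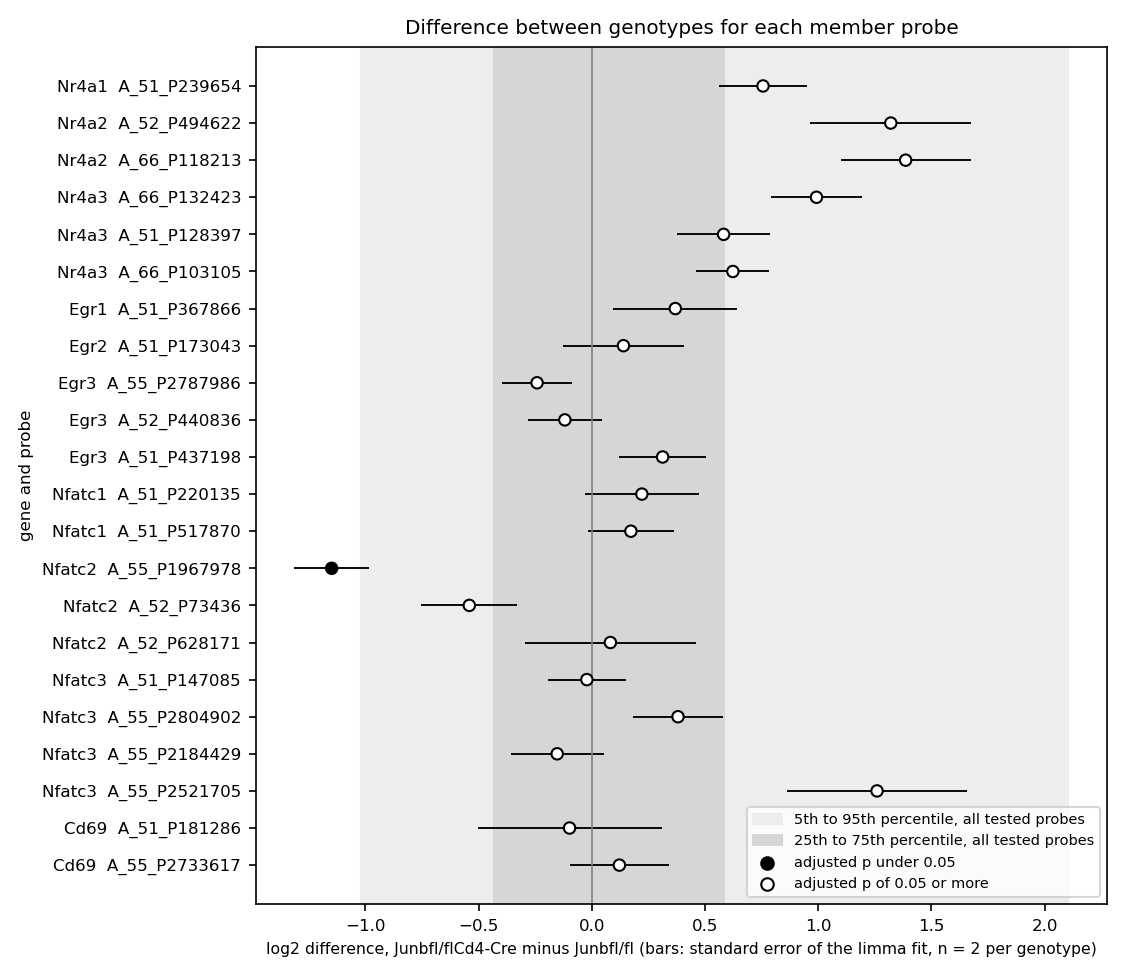
Log2 difference, arrays labelled Junbfl/flCd4-Cre minus control, of each member probe with its standard error, n = 2 arrays per genotype, beside shaded bands for the middle of all probes tested (5th to 95th and 25th to 75th percentile). The Nr4a probes lie between 0.58 and 1.39, the only filled point is Nfatc2 probe A_55_P1967978 at -1.15, and Egr, Nfatc1 and Cd69 probes lie between -0.24 and 0.37.

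Set beside all probes, the members were not a group with many separated values. Of the 22 probes, 12 (54.5%) had no overlap between genotypes, 9 higher and 3 lower, where 72.2% of all probes had none (34.4% higher and 37.8% lower). An unadjusted p under 0.05 was reached by 8 member probes (36.4%), where 38.2% of all probes did. Both member counts include Nfatc3 probe A_55_P2521705, whose difference was built in by the filter. The shares over all probes include probes that passed in the same way. With an array left out, which can only keep or raise such counts, 13 of 22 (59.1%) did not overlap without control 1, 19 (86.4%) without control 2, 19 without the array labelled Junbfl/flCd4-Cre 1 and 17 (77.3%) without the array labelled Junbfl/flCd4-Cre 2, where the shares of all probes were 83.2%, 87.6%, 88.0% and 85.6%. These last counts were chosen after seeing the data. Differences over all probes ran from -1.02 at the 5th to 2.10 at the 95th percentile and fell with brightness, from a median of 0.68 in the dimmest quintile to -0.35 in the brightest. The Nr4a1 and Nr4a2 probes, all in the brightest quintile, therefore lay above 0 among probes whose median lay below it, and the Nfatc2 probe A_55_P1967978 is also in that quintile.

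The zero of the scale is a choice, and scaling to the array median in place of the 75th percentile moved the median of all probes from -0.01 to -0.54, while the 75th percentile over probes above background on all arrays moved it to 0.20. Under median scaling 12972 probes were called, 18.5% of them higher, against 2277 with 81.6% higher in the values above. Nr4a1 then stood at 0.22 and the Nr4a2 probes at 0.79 and 0.85, still above 0, the Nr4a3 probes at 0.05 to 0.46, and Nfatc2 probe A_55_P1967978 at -1.68. Egr1, Egr2, both Nfatc1 probes and Cd69 probe A_55_P2733617 stood below 0 there. This scaling moves every probe by the same amount, so it changes the zero and not the order of the members. Quantile normalization and normexp, which do not move all probes alike, gave the 6 Nr4a probes differences of 0.39 to 1.66 and of 0.16 to 1.56, and Nfatc2 probe A_55_P1967978 differences of -0.84 and -0.80, with medians of all probes at -0.08 and -0.03.

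**Figure D3:**
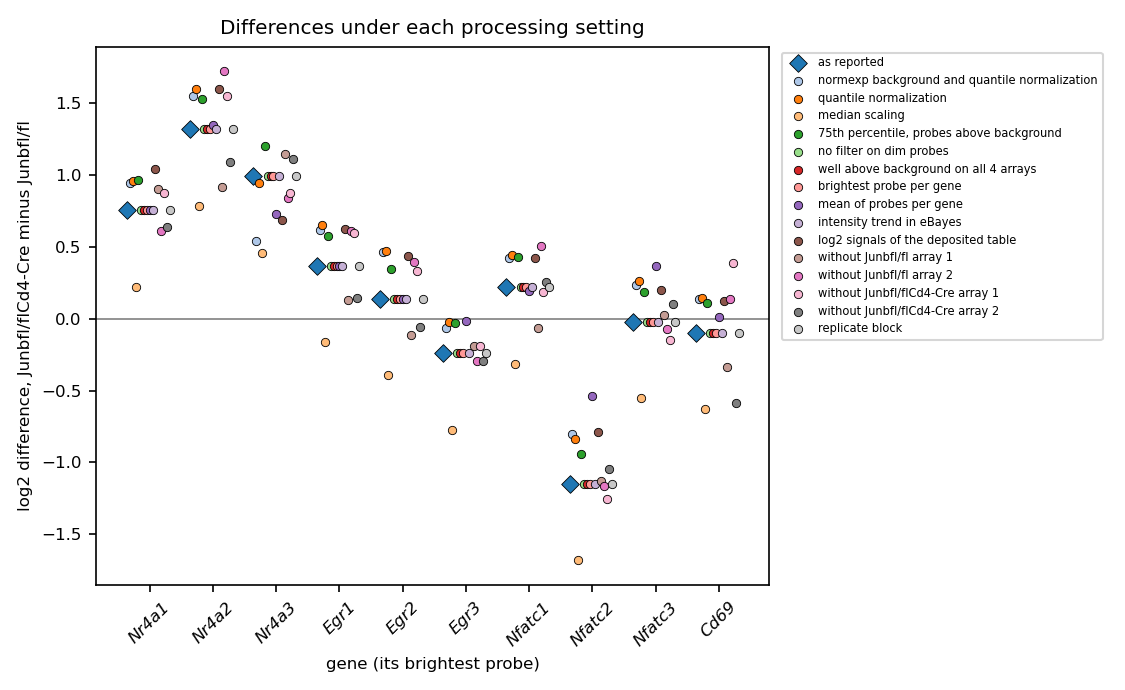
Log2 difference of the brightest probe of each member, arrays labelled Junbfl/flCd4-Cre minus control, under each alternative setting run. The 3 Nr4a genes stay above 0, Nfatc2 stays between -1.68 and -0.54 and Egr3 stays below 0, while Egr1, Egr2, Nfatc1, Nfatc3 and Cd69 have points on both sides of 0. Settings that keep these levels or leave out an array could not turn Nr4a, Nfatc2 or Egr3, whose genotypes did not overlap.

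Other genes of the same pathways were taken from 7 lists with 116 names, 111 of them tested by their brightest probe, of which 8 were called (3 higher and 5 lower, or 7.21%, beside 8.07% of all 22491 genes read this way, 6.8% higher and 1.27% lower). The median over all genes was 0.01. List medians depend on the scaling: over 15 alternatives the early activation list ran from -0.84 to -0.00018, the serum response factor list from -0.74 to 0.05 with the other sign in 4, the inhibitor list from -0.62 to 0.13, the anergy list from -0.39 to 0.35 and the Cd69 partners from -0.26 to 0.48, while the calcium list (-0.86 to -0.08) and the relatives (-0.93 to -0.18) kept their sign. All 8 calls were lost with any array left out (0 called by limma in each fit, with 20 to 27 at an unadjusted p under 0.05).

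Among relatives, partners and corepressors of the members (7 tested), Rxra fell and none rose, with a list median of -0.40. Rxra encodes the retinoid receptor that pairs with Nr4a1 and Nr4a2. It stood at 4.59 and 4.21 on the control arrays and at 2.69 and 2.73 on the others, a difference of -1.69 ± 0.20 (limma, adjusted p = 0.0337). Its second probe gave -1.54 ± 0.26 and was not called (limma, adjusted p = 0.0518).

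Of the genes that carry calcium entry and calcineurin activity (20 tested), Atp2a2 fell and none rose, with a list median of -0.33. Atp2a2 encodes the SERCA2 pump that refills the endoplasmic store; it gave -1.06 ± 0.16 (limma, adjusted p = 0.0467), while its other probes gave -0.78 and -0.41 and were not called. None of the 16 inhibitors and kinases of NFAT tested was called, and their median was -0.08. The calcineurin inhibitor Rcan3 stood at -0.82 ± 0.15 (limma, adjusted p = 0.0577) and the scaffold Homer2, which competes with calcineurin for NFAT, at 1.38 ± 0.47 (limma, adjusted p = 0.117). None of the 20 genes around serum response factor was called either (median -0.21). There the kinase Mapk3 (ERK1) stood at -0.77 ± 0.18 (limma, adjusted p = 0.0740) and Rasgrp1, the Ras exchange factor downstream of diacylglycerol, at 0.63 ± 0.17 (limma, adjusted p = 0.0842).

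Among other early activation genes (22 tested, median -0.31), Irf8 and Myc fell and Tnfrsf9 rose. Irf8, a transcription factor of the interferon regulatory family, gave -2.02 ± 0.19 (limma, adjusted p = 0.0281), from 5.26 and 4.94 to 3.07 and 3.09. Myc, the growth regulator, gave -1.27 ± 0.19 (limma, adjusted p = 0.0453) at its brightest probe and -0.73 without a call at its other. Tnfrsf9 (4-1BB), a costimulatory receptor induced by T cell receptor signals, gave 1.21 ± 0.20 (limma, adjusted p = 0.0491), from 4.0 and 3.65 to 4.97 and 5.09.

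Among genes tied to anergy and restraint (20 tested, median 0.14), Ikzf2 rose and Ctla4 fell. Ikzf2 (Helios), a factor of thymic Treg cells, stood at -1.11 and -2.44 on the control arrays and at 2.75 and 2.83 on the others, a difference of 4.56 ± 0.49 (limma, adjusted p = 0.0306). Its other probes gave 5.22 and 3.95 and were called as well. Ctla4, the inhibitory receptor, gave -1.47 ± 0.24 (limma, adjusted p = 0.0484). Of the 6 genes that work with Cd69 in tissue retention (median 0.27), Itgae (CD103), the integrin of epithelial residence, rose by 3.36 ± 0.41 (limma, adjusted p = 0.0351) and none fell. Normexp, quantile normalization or the deposited signals ended the calls of Atp2a2, Ctla4 and Myc. The mean of a gene's probes ended those of Atp2a2, Myc and Tnfrsf9, and median scaling also ended that of Tnfrsf9 (0.68, limma, adjusted p = 0.0924).

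**Figure D4:**
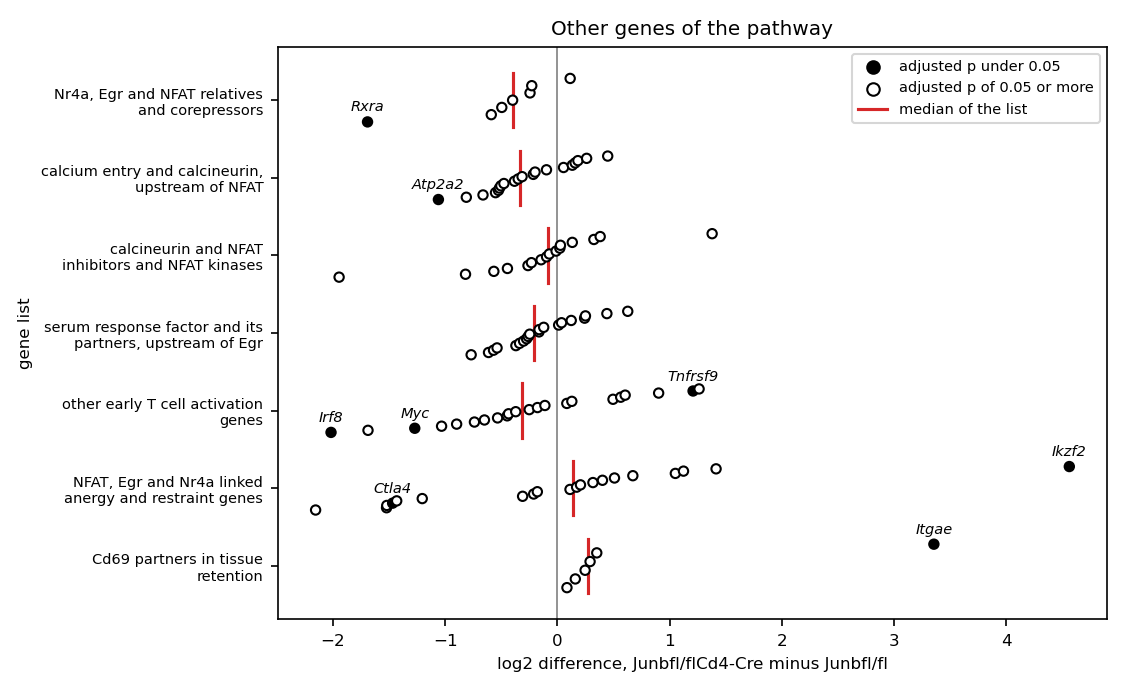
Log2 difference, arrays labelled Junbfl/flCd4-Cre minus control, of the brightest probe of each tested gene in 7 pathway lists. Filled points are the 8 genes with an adjusted p under 0.05, and red bars mark list medians, which lie between -0.40 and 0.27.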

How the data were processed

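RNA of 4 samples was read on single-colour Agilent arrays, 2 per genotype, grouped by the sample titles and genotype labels. Per the file headers and the submitters' processing notes, Agilent Feature Extraction 11.5.1.1 gave a processed intensity for each spot, background-subtracted and not scaled between arrays, and flags for background, saturation and outlying spots. The authors also deposited a table of log2 signals with log2 differences and adjusted p-values, and the sources used here do not give how it was made; it holds 18 of the 22 member probes and served as an alternative.

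Flagged spots were left out and spots of a probe averaged. The log2 of the processed signal minus the array's 75th percentile over 56310 usable probes was tested by lmFit and eBayes of limma 3.58.1 in R 4.3.3, without covariates, on the 33606 probes that both arrays of either genotype read well above background, with Benjamini-Hochberg adjustment over all of them. A gene outside the members was read by its brightest probe. Where no array of a genotype was above background, a bound ("at least") replaces the fold. The number of arrays limits the precision. The fit was run on simulated data with independent noise, in which 200 probes were changed by more than any member difference. That run therefore does not show how well differences of the members' size are found. Every member probe is named; of each pathway list the called genes, or otherwise the 2 with the smallest p. The members and lists were chosen with earlier results of these data known. Alternatives were other background corrections, scalings, filters, summaries per gene, variance moderation, the deposited signals, each array left out and the array number as a block. Probe positions are those of the files (mm9). Promoter windows are from RefSeq (GRCm38.p6). Python 3.11.15, pandas 2.3.3, numpy 2.4.6 and matplotlib 3.10.9 made tables and figures.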

Additional observations from a re-analysis of the deposited data

How the results depend on the processing

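Limits: with 2 arrays per genotype, every limma call rests on all 4. With 1 array left out, the lone array of its genotype was assumed to vary like the other group; called then were 0 to 0 member probes (4 to 7 at an unadjusted p under 0.05), 0 to 0 of all probes (7315 to 11361) and 0 to 0 pathway genes (20 to 27). The slide as a block was not run, because all arrays lay on 1 slide.

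Member probes called by limma, 1 in the values above, were 0 under normexp, 0 under quantile normalization, 0 without the filter on dim probes and 0 for the mean of a gene's probes (6, 6, 7 and 4 at an unadjusted p under 0.05), 3 under median scaling, 2 with the 75th percentile over probes above background on all arrays and 4 with an intensity trend. In the deposited signals 1 of 18 member probes was called, and it was higher. The call above was lower. Higher calls numbered 0 of the 3 under median scaling, 1 of the 2 with that 75th percentile and 3 of the 4 with the trend. All probes called, 2277 above, were 338 under normexp, 650 under quantile normalization, 12972 under median scaling, 0 of 56310 without the filter (12028 at an unadjusted p under 0.05), 1377 of those above background on all 4 arrays, 5239 with the trend and 641 in the deposited signals. Pathway genes called, 8 of 111 above, were 5 under normexp, 5 under quantile normalization, 5 in the deposited signals, 50 under median scaling, 18 with the trend and 0 without the filter (22 at an unadjusted p under 0.05). The cause was not tested.

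Same-numbered arrays deviated together over probes (correlation 0.45 over 2 pairs), but the labels state no shared batch, so they share only a number. With the number as a replicate block, 8522 probes, 20 pathway genes and 5 member probes were called, the last being both Nr4a2 probes, Nr4a3 A_66_P132423, Nfatc2 A_55_P1967978 and Nfatc3 A_55_P2521705, which passed the filter only through the arrays on which it was bright.

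Fits that keep a probe's levels or leave out an array cannot turn a probe whose genotypes do not overlap. No called member changed sign. Uncalled members that did were, under normexp, Egr3 A_51_P437198 (-0.020), Nfatc2 A_52_P628171 (-0.043), Nfatc3 A_51_P147085 (0.23) and Cd69 A_51_P181286 (0.14), and under quantile normalization the same probes (-0.35, -0.15, 0.26 and 0.14). Under median scaling they were Egr1 (-0.16), Egr2 (-0.39), Egr3 A_51_P437198 (-0.22), Nfatc1 (-0.31 and -0.36), Nfatc2 A_52_P628171 (-0.45), Nfatc3 A_55_P2804902 (-0.15) and Cd69 A_55_P2733617 (-0.41). With the 75th percentile over probes above background on all arrays they were Egr3 A_52_P440836 (0.091), Nfatc3 A_51_P147085 (0.19) and A_55_P2184429 (0.057) and Cd69 A_51_P181286 (0.11). The mean of a gene's probes turned Nfatc3 (0.37) and Cd69 (0.012), and the deposited signals turned Nfatc2 A_52_P628171 (-0.21), Nfatc3 A_51_P147085 (0.20) and Cd69 A_51_P181286 (0.12). With an array left out, Egr2 ran from -0.11 to 0.39, Nfatc1 A_51_P220135 from -0.067 to 0.51, Nfatc2 A_52_P628171 from -0.42 to 0.58, Nfatc3 A_51_P147085 from -0.15 to 0.10, Nfatc3 A_55_P2184429 from -0.31 to 0.0010, Cd69 A_51_P181286 from -0.59 to 0.39 and Cd69 A_55_P2733617 from -0.064 to 0.31.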

Other observations

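The genes whose centred levels over the 4 arrays lay nearest to each member's brightest probe were found by root mean square difference among 21419 probes above background on all arrays. Nearest to Nr4a1 were Zfp2 (0.030 log2) and Fgf18 (0.043), nearest to Nr4a2 were Apobec1 (0.017), the cytidine deaminase of apolipoprotein B RNA, and Ifna9 (0.024), and nearest to Nr4a3 were Fbxo27 (0.030) and Nol4l (0.047). Nearest to Nfatc2 were Pdgfb (0.039), a growth factor chain, and the laminin gene Lamc1 (0.040). Cd69 had 8 probes within 0.1 log2, the nearest being Rasgef1b (0.064), while Egr3 had 2315 and Nfatc3 1653, both being genes whose brightest probe varied little over the arrays. Over 4 arrays such nearness is a description only.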
